A study of Mus musculus with 6 samples.

Results

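The genes described here are 37 interferon-stimulated genes, taken by symbol from the 32161 rows of a gene count table of colonic regulatory T cells of the mouse (Treg cells, the CD4 T cells marked by Foxp3 that restrain immune responses). All 37 symbols were found, and all 37 genes had enough counts to be tested. KO cells came from Il23r fl/fl Foxp3YFP-Cre mice, in which Cre made under the Foxp3 promoter acts on floxed alleles of the interleukin-23 receptor gene, and WT cells came from Foxp3YFP-Cre mice, which carry the same Cre and YFP reporter. Both groups were on the C57/BL6 strain and untreated, and no age is given. Live CD45+ CD4+ Foxp3+ cells were sorted from the lamina propria of the colon and sequenced in bulk, with 3 libraries per group, each a pool of at least 5 mice. The comparison asks whether the resting interferon response of these cells differed when the receptor gene was targeted.

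Interferons are secreted signalling proteins that most cells read through paired receptor chains at their surface. Type I interferons act through Ifnar1 and Ifnar2 and the kinases Jak1 and Tyk2, which activate a complex that holds Stat2 and Irf9 and binds the interferon-stimulated response element (ISRE). Interferon gamma acts through Ifngr1 and Ifngr2, Jak1 and Jak2, and the gamma-activated site (GAS). The genes switched on include antiviral effectors (the OAS, IFIT and Mx families, viperin), GTPases that attack vacuoles of microbes (the GBP and IRG families), nucleic acid sensors, and regulators that raise or damp the response itself. Resting T cells keep many of them at a low level.

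The DNA just before the annotated start of these genes was read first, since it carries the elements through which interferons act. RefSeq promoter sequences (GRCm38.p6) were on hand for 26 of the 37 genes, and the 250 bases before each start were searched on both strands. The ISRE letters searched were GAAANNGAAA (TTTCNNTTTC on the other strand), and the GAS letters were TTCNNNGAA, which read the same on both strands. The ISRE letters occurred in 15 of the 26 genes (57.7%), against 936 of all 27018 genes in the promoter table (3.46%). The GAS letters occurred in 6 of the 26 (23.1%), against 2197 of 27018 (8.13%). A match describes the letters and does not show that a factor binds there. Oas2, Usp18, Ifi27l2a and Iigp1 had higher levels in every KO library but no promoter sequence on hand. The following 4 sequences are of genes whose KO and WT libraries do not overlap below, though none of these genes passed the test. Oas1a, Phf11b and Irf9 had higher levels in every KO library and Gbp7 a lower level in every KO library. Each sequence is the 250 bases before the start, 5′ to 3′ on the strand of the gene, with ISRE and GAS letters in capitals.
Oas1a, chr5:120907526-120907775, minus strand: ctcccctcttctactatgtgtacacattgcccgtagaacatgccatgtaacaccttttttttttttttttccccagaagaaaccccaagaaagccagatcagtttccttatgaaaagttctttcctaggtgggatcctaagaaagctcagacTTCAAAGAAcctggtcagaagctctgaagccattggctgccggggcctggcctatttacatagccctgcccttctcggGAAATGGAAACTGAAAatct
Phf11b, chr14:59341331-59341580, minus strand: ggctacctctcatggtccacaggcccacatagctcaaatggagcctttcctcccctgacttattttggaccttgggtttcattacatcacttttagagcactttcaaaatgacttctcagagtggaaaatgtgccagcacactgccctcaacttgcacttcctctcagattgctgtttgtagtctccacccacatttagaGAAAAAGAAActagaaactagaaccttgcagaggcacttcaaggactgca
Irf9, chr14:55603735-55603984, plus strand: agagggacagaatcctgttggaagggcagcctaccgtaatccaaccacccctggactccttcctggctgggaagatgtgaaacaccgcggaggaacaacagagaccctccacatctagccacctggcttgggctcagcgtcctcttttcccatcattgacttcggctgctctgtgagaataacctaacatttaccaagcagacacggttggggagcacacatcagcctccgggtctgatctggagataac
Gbp7, chr3:142530086-142530335, plus strand: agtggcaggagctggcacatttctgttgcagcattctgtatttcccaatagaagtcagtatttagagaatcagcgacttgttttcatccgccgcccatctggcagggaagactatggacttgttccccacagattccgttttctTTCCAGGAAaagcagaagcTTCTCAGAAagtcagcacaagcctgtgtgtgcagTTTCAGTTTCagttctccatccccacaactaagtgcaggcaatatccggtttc
In Oas1a, overlapping ISRE letters filled bases -20 to -5 before the start, and the GAS letters lay at -98 to -90. Phf11b held 1 ISRE match, at -50 to -41. Gbp7 held 1 ISRE match, at -53 to -44, and 2 GAS matches, at -106 to -98 and -87 to -79. The Irf9 window held neither.

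The next set shows 50-base windows around the ISRE letters, in capitals, of 4 genes that are usual readouts of interferon exposure, for comparison with the genes above.
Isg15, chr4:156200861-156200910, minus strand: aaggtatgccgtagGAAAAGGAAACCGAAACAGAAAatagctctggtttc
Ifit1, chr19:34640775-34640824, plus strand: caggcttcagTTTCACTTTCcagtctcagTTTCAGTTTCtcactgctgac
Ifit3, chr19:34583370-34583419, plus strand: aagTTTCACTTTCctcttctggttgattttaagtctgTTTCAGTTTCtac
Igtp, chr11:58199502-58199551, plus strand: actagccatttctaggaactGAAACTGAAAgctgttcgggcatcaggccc
Isg15 carried 3 overlapping ISRE matches between -78 and -57 from its start. Ifit1 and Ifit3 carried 2 separate matches each, Ifit1 at -104 to -95 and -85 to -76, and Ifit3 at -156 to -147 and -122 to -113. Igtp carried 1 ISRE match at -34 to -25 and 1 GAS match at -45 to -37, the latter in lower case in its window. The levels of Isg15, Ifit1, Ifit3 and Igtp overlapped between KO and WT libraries, so that ISRE letters stood before genes of either kind.

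**Figure D1:**
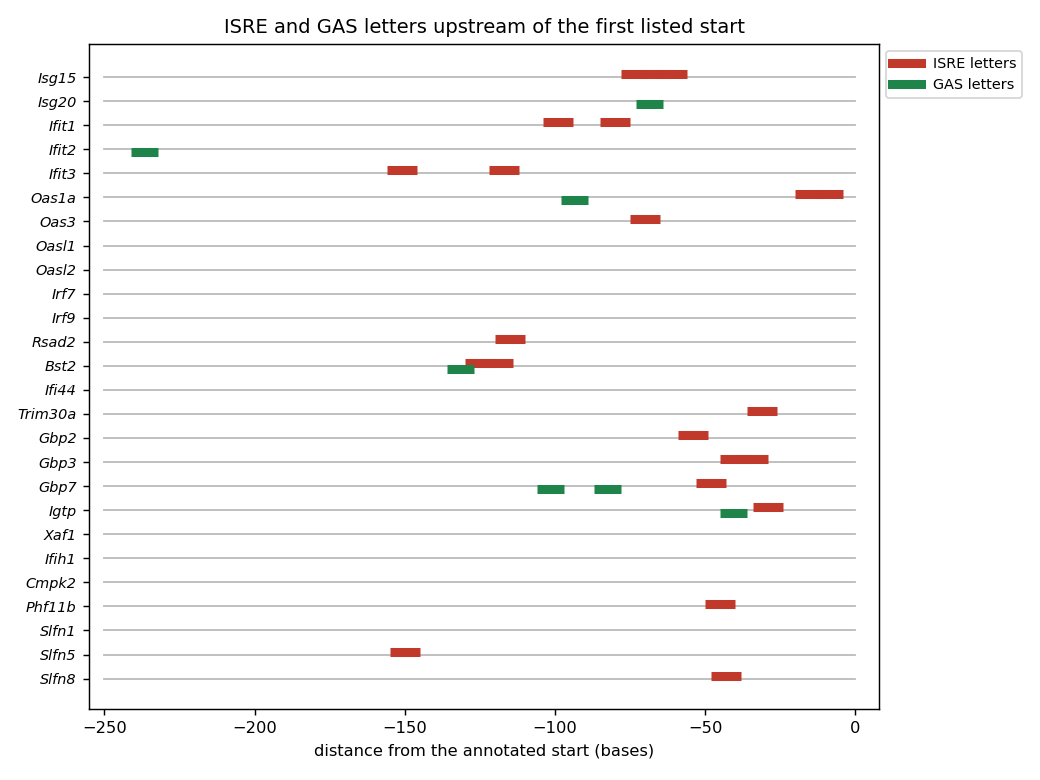
Positions of ISRE letters (red) and GAS letters (green) in the 250 bases before the first listed start of the 26 genes with a promoter sequence. The horizontal axis is the distance from the annotated start in bases. Matches lie in 15 genes for ISRE and 6 for GAS. Irf7, Irf9, Oasl1, Oasl2, Ifi44, Xaf1, Ifih1, Cmpk2 and Slfn1 show none.

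Total estimated counts ran from 9680503 to 20654340 per library, and RNA integrity numbers from 7.9 to 8.8 except for 5 in WT2. Il23r was measured at 18.4, 4.99 and 8.96 CPM (counts relative to library size, scaled by TMM factors) in the libraries labelled KO1, KO2 and KO3, against 19.4, 38.3 and 13.6 CPM in WT1, WT2 and WT3, so the library labelled KO1 lay within the WT range. WT1 and the library labelled KO1 were sorted in one batch (A), WT2 and WT3 in a second (B), and the libraries labelled KO2 and KO3 on their own, in batches C and D. The libraries labelled KO2 and KO3 were closer to each other (Spearman 0.986 over log2 CPM) than any other pair (0.872 to 0.940). The summed levels of the X-inactivation transcripts Xist and Tsix were 1185, 3479 and 2071 CPM in the libraries labelled KO1, KO2 and KO3, against 0.0943, 0 and 0.284 CPM in WT1, WT2 and WT3, so sex and genotype cannot be told apart. Y-linked transcripts summed to 179, 2.19 and 72.8 CPM in the libraries labelled KO1, KO2 and KO3, against 264, 475 and 273 CPM in WT1, WT2 and WT3, so the libraries labelled KO1 and KO3 held both kinds of transcript. The 6 Treg markers, Foxp3 among them, summed to 7216 to 7998 CPM in KO libraries, against 7539 to 8077 CPM in WT libraries.

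No interferon-stimulated gene passed the test between genotypes: edgeR's quasi-likelihood test, with Benjamini-Hochberg adjustment over 12557 genes at 0.05, called 0 of the 37, where it called 0.0239% of all tested genes (3 genes, and 0.0159% counting those higher in KO). Adjusted p-values of the 37 ran from 0.384 to 0.989. Without adjustment, 4 of the 37 (10.8%) had a p under 0.05, against 9.37% of all tested genes: Oas2, Irf9 and Ifi27l2a with higher levels in KO, where 5.02% of all tested genes did so, and Gbp7 with lower levels, where 4.35% did. Fold changes (log2 of KO over WT) were positive in 21 of the 37 genes (56.8%), against 47.4% of all tested genes, and their median was 0.16, against -0.04 over all tested genes. A filter of 50 counts in 3 libraries left 30 of the 37 genes, of which 14 were positive. Their median was -0.049, against -0.046 over all genes left by that filter. In 7 of the 37 genes (18.9%) every KO library lay above every WT library, where this held for 9.68% of all tested genes. In 1 gene (2.70%) every KO library lay below, where this held for 8.01%. Without the library labelled KO1 the count on the higher side was 12 (32.4%, against 19.0% of all tested genes), and without WT3 the median was 0.44. On the lower side the count was 6 without WT1 (16.2%, against 15.6% of all tested genes), 4 without the library labelled KO1 (10.8%, against 15.0%) and 3 without WT2 (8.11%, against 14.1%).

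Other methods drew the line differently. DESeq2's Wald test called 3 of the 37 genes (Oas2, Irf9 and Ifi27l2a), all higher in KO, where it called 1.89% of genes with an adjusted p (1.21% in this direction). In the authors' deposited table, Oas2 and Irf9 had an adjusted p under 0.05, where 2.41% of genes had one (1.46% with higher levels in KO). The p-values measure the spread between pools, and bulk RNA cannot tell fewer expressing cells from less RNA per cell.

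**Figure D2:**
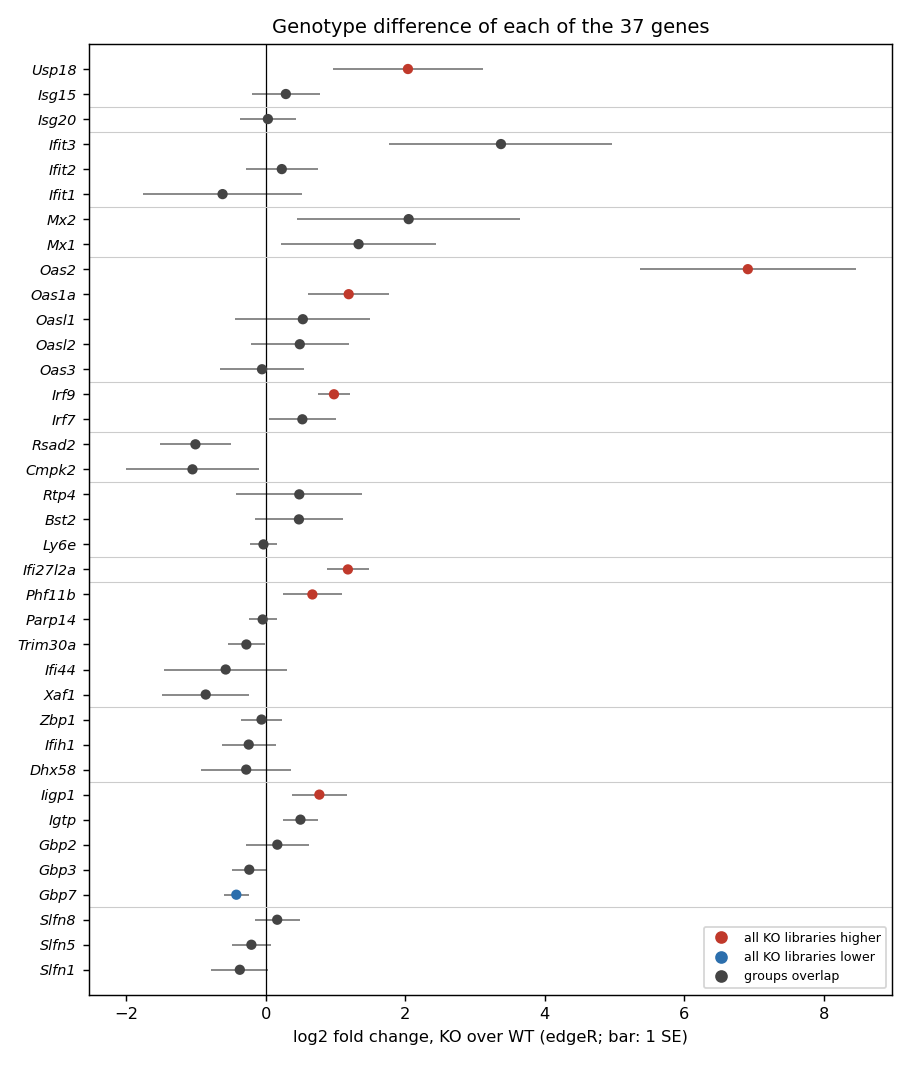
Log2 fold change of KO over WT from edgeR (points) for each of the 37 genes, grouped by family. Bars show 1 standard error, derived from the edgeR test. Red marks genes with all KO libraries above all WT libraries, blue the gene with all KO libraries below, and dark grey genes whose groups overlap. Oas2 lies farthest right at 6.91, and Rsad2 and Cmpk2 lie farthest left at -1.01 and -1.05.

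Among the transcription factors, Irf9 (Entrez 16391), the DNA-binding partner of Stat2, had a narrow spread in each group and no overlap. Its level was 66.4, 69.6 and 70.7 CPM in the libraries labelled KO1, KO2 and KO3, against 37.6, 31.2 and 36.1 CPM in WT1, WT2 and WT3. The means were 68.9 ± 2.24 CPM in KO and 35.0 ± 3.33 CPM in WT (SD, n = 3 each), and the gap between the groups was wider than the spread within either. The log2 fold change was 0.98 (SE 0.23), with an adjusted p of 0.387 by edgeR and 0.00242 by DESeq2. Within sort batch A, the library labelled KO1 exceeded WT1 by 0.82 on the log2 scale. The authors' deposited table gives Irf9 a log2 fold change of 1.33 and an adjusted p of 0.000189. Irf7 (Entrez 54123), which amplifies type I interferon production and is itself induced, overlapped between groups. It was measured at 42.9, 24.6 and 27.3 CPM in the libraries labelled KO1, KO2 and KO3, against 39.2, 14.0 and 12.9 CPM in WT1, WT2 and WT3, a log2 fold change of 0.52 (SE 0.48). The highest value in each group was that of sort batch A.

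Enzymes of the OAS family make the oligoadenylate messengers that activate the RNA-degrading enzyme RNase L, while the related Oasl1 restrains Irf7 translation in mice. The summed level of the 5 members was 29.5, 35.0 and 34.4 CPM in the libraries labelled KO1, KO2 and KO3, against 12.7, 23.6 and 26.9 CPM in WT1, WT2 and WT3. Oas3, Oasl1 and Oasl2 each overlapped between groups, and the share of such sums that separate over all genes was not computed. Oas2 (Entrez 246728) was measured at 0.935, 6.33 and 6.02 CPM in the libraries labelled KO1, KO2 and KO3, against 0, 0.103 and 0 CPM in WT1, WT2 and WT3. This was 221 counts over the KO libraries and 1 count over the WT libraries. Scaled by library size, the ratio was 153, with an exact 95% counting interval of 27.2 to 6069. A count of 0 allows a level of up to 0.283 CPM in WT1 and 0.170 CPM in WT3 (3 counts per library), and these bounds and the interval cover counting error only. The library labelled KO1, though above every WT library, held far less Oas2 than the other KO libraries. The adjusted p was 0.384 by edgeR, 0.00276 by DESeq2 and 0.0473 in the authors' deposited table.

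Oas1a (Entrez 246730) was measured at 8.95, 7.06 and 10.4 CPM in the libraries labelled KO1, KO2 and KO3, against 3.58, 4.32 and 3.69 CPM in WT1, WT2 and WT3. The means were 8.81 ± 1.68 CPM in KO and 3.86 ± 0.397 CPM in WT (SD, n = 3 each), with no overlap, a log2 fold change of 1.19 (SE 0.58) and an adjusted p of 0.551 by edgeR. Of the 31-base words in Oas1a transcripts, 68.8% also occur in other genes, chiefly Oas1g, so estimated counts can be split between these copies. Oas1g itself was at 4.32, 0.973 and 0.627 CPM in the libraries labelled KO1, KO2 and KO3, against 2.55, 0 and 0.908 CPM in WT1, WT2 and WT3, with overlap. Oas3, at 10.4, 9.005 and 9.91 CPM in the libraries labelled KO1, KO2 and KO3 against 3.58, 14.3 and 12.6 CPM in WT1, WT2 and WT3, was level in KO and wide in WT. Oasl1 lay at 2.19 to 3.16 CPM in KO and 0.411 to 3.58 CPM in WT, and Oasl2 at 5.89 to 9.49 CPM in KO and 1.98 to 9.02 CPM in WT.

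**Figure D3:**
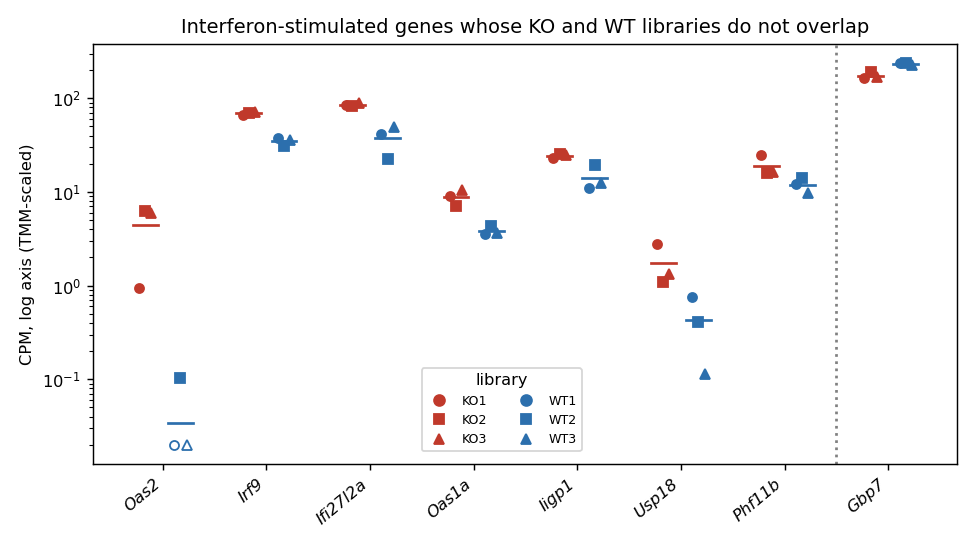
Level of the 8 genes whose groups do not overlap, in CPM on a log axis, with KO libraries in red and WT libraries in blue. Marker shape gives the library number, short bars the group means, and open symbols libraries with 0 counts, drawn at the foot of the axis. The KO points of Irf9 and Ifi27l2a sit close together near 68.9 and 85.2 CPM, and Gbp7, right of the dotted line, is the gene with lower levels in KO.

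Isg15 (Entrez 100038882), a ubiquitin-like protein attached to other proteins during infection, overlapped between groups, at 11.5, 14.4 and 14.6 CPM in the libraries labelled KO1, KO2 and KO3, against 11.5, 15.0 and 6.75 CPM in WT1, WT2 and WT3. Its log2 fold change was 0.29 (SE 0.48). Usp18 (Entrez 24110), the protease that removes Isg15 and also blocks the type I receptor at Ifnar2, was low. It was measured at 2.81, 1.10 and 1.32 CPM in the libraries labelled KO1, KO2 and KO3, against 0.754, 0.411 and 0.113 CPM in WT1, WT2 and WT3, without overlap. It rested on 102 counts over KO and 14 over WT, with a log2 fold change of 2.04 (SE 1.07) and an adjusted p of 0.578 by edgeR. Isg20, an exonuclease that degrades viral RNA, averaged 37.6 ± 10.6 CPM in KO and 36.8 ± 17.9 CPM in WT (SD, n = 3 each).

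The IFIT proteins bind foreign RNA ends and block its translation, and their levels varied widely within each group. Ifit1 (Entrez 15957) was measured at 0.757, 10.04 and 6.77 CPM in the libraries labelled KO1, KO2 and KO3, against 1.04, 3.39 and 22.4 CPM in WT1, WT2 and WT3. The lowest value of each group belonged to sort batch A, and WT3 was the highest of all. Ifit3 (Entrez 15959) was measured at 0.312, 6.81 and 3.64 CPM in the libraries labelled KO1, KO2 and KO3, against 0.943, 0.103 and 0 CPM in WT1, WT2 and WT3. Although it totalled 177 counts over KO and 11 over WT, the library labelled KO1 lay below WT1, and the log2 fold change of 3.37 (SE 1.60) had an adjusted p of 0.548 by edgeR. It was 6.18 without WT1 and 2.51 without the library labelled KO2. Of the 31-base words of Ifit3, 61.8% also occur in other genes, chiefly the near copy Ifit3b. Ifit2 varied less, at 8.24 to 12.7 CPM in KO and 6.68 to 11.9 CPM in WT.

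The Mx GTPases trap viral particles, and the Mx1 gene of C57BL/6 mice is known to be disrupted. Mx1 was measured at 7.75, 1.28 and 1.76 CPM in the libraries labelled KO1, KO2 and KO3, against 0.377, 3.08 and 0.851 CPM in WT1, WT2 and WT3. Mx2 was measured at 4.81, 0.243 and 0.690 CPM in the libraries labelled KO1, KO2 and KO3, against 0.189, 1.23 and 0 CPM in WT1, WT2 and WT3. For both genes the library labelled KO1 was the highest and WT2 the second, and the groups overlapped. The positive log2 fold changes, 1.33 (SE 1.12) for Mx1 and 2.05 (SE 1.60) for Mx2, were 0.09 and 0.03 without the library labelled KO1, and 2.50 and 4.40 without WT2.

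Rsad2 (viperin, which makes a chain-terminating nucleotide) and its neighbour Cmpk2 (a mitochondrial nucleotide kinase that supplies it) had negative fold changes. Rsad2 (Entrez 58185) was measured at 8.95, 12.9 and 10.2 CPM in the libraries labelled KO1, KO2 and KO3, against 9.43, 27.0 and 28.1 CPM in WT1, WT2 and WT3. WT1 lay within the KO range, and the log2 fold change was -1.01 (SE 0.51), with an adjusted p of 0.569 by edgeR. Cmpk2 was measured at 6.37, 0.426 and 2.26 CPM in the libraries labelled KO1, KO2 and KO3, against 8.68, 3.19 and 6.98 CPM in WT1, WT2 and WT3. Its log2 fold change was -1.05 (SE 0.96) by edgeR, -2.23 without the library labelled KO1 and -0.54 without the library labelled KO2. It was 0.16 in the authors' deposited table. Cmpk2 was 1 of 4 genes whose sign differed between the 2 sources, with Oasl1, Zbp1 and Slfn8, none of them called in either. Summed over both genes, the viperin locus stood at 15.3, 13.3 and 12.5 CPM in the libraries labelled KO1, KO2 and KO3, against 18.1, 30.2 and 35.1 CPM in WT1, WT2 and WT3. Rsad2 and Cmpk2 each overlapped between groups, and the share of such sums that separate over all genes was not computed.

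**Figure D4:**
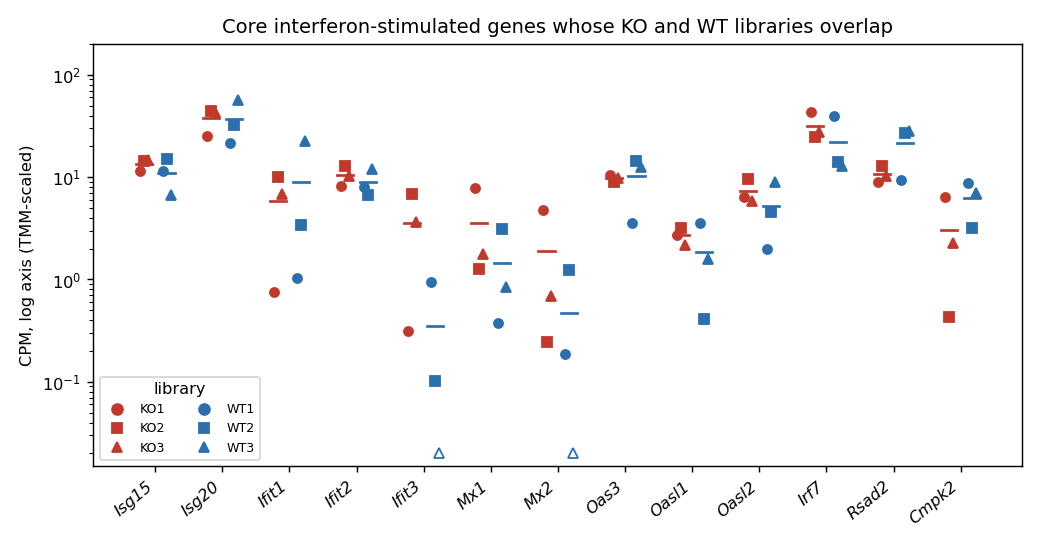
Level of 13 antiviral and regulatory genes whose KO and WT libraries overlap, in CPM on a log axis, with KO libraries in red and WT libraries in blue. Marker shape gives the library number, short bars the group means, and open symbols libraries with 0 counts, drawn at the foot of the axis. Ifit1 ranges from 0.757 to 22.4 CPM over the 6 libraries, and Isg15 from 6.75 to 15.0 CPM.

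Ifi27l2a (Entrez 76933), a small protein placed in mitochondria, was, with Irf9 and Oas2, among the genes that DESeq2 called. It was measured at 84.9, 82.7 and 88.0 CPM in the libraries labelled KO1, KO2 and KO3, against 41.5, 22.4 and 49.0 CPM in WT1, WT2 and WT3. The means were 85.2 ± 2.62 CPM in KO and 37.6 ± 13.7 CPM in WT (SD, n = 3 each), and the KO libraries varied little. The log2 fold change was 1.18 (SE 0.31), with an adjusted p of 0.407 by edgeR, 0.0323 by DESeq2 and 0.0909 in the authors' deposited table. Within sort batch A the log2 difference was 1.03.

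The membrane proteins overlapped between groups. Ly6e (Entrez 17069), a surface protein anchored in the lipid layer that restricts coronavirus entry, was the most abundant of the 37, at 777, 1012 and 1115 CPM in the libraries labelled KO1, KO2 and KO3, against 924, 935 and 1114 CPM in WT1, WT2 and WT3. The means were 968 ± 173 CPM in KO and 991 ± 107 CPM in WT (SD, n = 3 each), with a log2 fold change of -0.03 (SE 0.19). Bst2 (tetherin), which holds budding virus at the cell surface, lay at 5.48 to 25.01 CPM in KO and 6.48 to 18.3 CPM in WT. Rtp4 stayed at 1.11 to 3.95 CPM in KO and 1.04 to 2.38 CPM in WT.

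The GBP and IRG GTPases, a class induced above all by interferon gamma, lay on both sides. Gbp7 (Entrez 229900) was measured at 164, 191 and 168 CPM in the libraries labelled KO1, KO2 and KO3, against 238, 236 and 228 CPM in WT1, WT2 and WT3. The means were 174 ± 14.5 CPM in KO and 234 ± 5.02 CPM in WT (SD, n = 3 each), with no overlap, a log2 fold change of -0.42 (SE 0.18) and an adjusted p of 0.511 by edgeR. Iigp1 (Entrez 60440), which disrupts the vacuoles of parasites, was measured at 22.8, 25.2 and 24.8 CPM in the libraries labelled KO1, KO2 and KO3, against 10.9, 19.5 and 12.3 CPM in WT1, WT2 and WT3. Its KO libraries all lay above the WT libraries, with a log2 fold change of 0.77 (SE 0.39) and an adjusted p of 0.569 by edgeR. Igtp (Entrez 16145), which regulates the vacuole-attacking members of its family, was measured at 141, 263 and 231 CPM in the libraries labelled KO1, KO2 and KO3, against 146, 134 and 169.7 CPM in WT1, WT2 and WT3. The libraries labelled KO2 and KO3 exceeded every WT library and the library labelled KO1 did not, so the groups overlapped (log2 fold change 0.50, SE 0.25). Gbp3 was measured at 63.8, 98.5 and 87.5 CPM in the libraries labelled KO1, KO2 and KO3, against 114, 85.1 and 95.5 CPM in WT1, WT2 and WT3. Gbp2 lay at 22.8 to 27.1 CPM in KO, inside its WT range of 13.7 to 38.8 CPM.

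The log2 fold change was negative in all 3 sensors (-0.28 to -0.06) and in 4 of the 5 other cytoplasmic members, Phf11b being the exception, and none of the 8 genes passed the test. Zbp1, a sensor of left-handed nucleic acid that starts necroptosis, was measured at 51.9, 64.4 and 68.8 CPM in the libraries labelled KO1, KO2 and KO3, against 48.5, 92.2 and 52.7 CPM in WT1, WT2 and WT3. The RNA sensor Ifih1 (MDA5) lay at 15.0 to 27.5 CPM in KO and 18.01 to 32.8 CPM in WT, and its relative Dhx58 (LGP2) at 6.02 to 13.4 CPM in KO and 5.24 to 18.8 CPM in WT. Trim30a, which restrains inflammatory signalling in mice, was measured at 99.5, 70.5 and 63.0 CPM in the libraries labelled KO1, KO2 and KO3, against 71.0, 106 and 106 CPM in WT1, WT2 and WT3. Parp14, an ADP-ribosyltransferase, was measured at 134, 125 and 118 CPM in the libraries labelled KO1, KO2 and KO3, against 109, 140.4 and 139.5 CPM in WT1, WT2 and WT3. Both genes overlapped between groups.

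Phf11b (Entrez 236451) was measured at 24.8, 15.9 and 16.2 CPM in the libraries labelled KO1, KO2 and KO3, against 12.1, 14.2 and 9.64 CPM in WT1, WT2 and WT3. The groups did not overlap, though only by a narrow gap, and the log2 fold change of 0.67 (SE 0.43) had an adjusted p of 0.644 by edgeR. Of its 31-base words, 62.9% occur in other genes, chiefly Phf11a, which overlapped between groups at 7.66, 4.44 and 5.27 CPM in the libraries labelled KO1, KO2 and KO3, against 6.41, 22.2 and 1.53 CPM in WT1, WT2 and WT3. Xaf1, which promotes apoptosis, lay at 6.32 to 13.7 CPM in KO and 9.46 to 36.1 CPM in WT, with WT3 far above the rest. Ifi44 lay at 1.63 to 4.38 CPM in KO and 1.32 to 7.81 CPM in WT.

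The Schlafen genes, a family tied to T cell quiescence in mice, overlapped between groups throughout. Slfn5 was measured at 64.0, 93.8 and 72.9 CPM in the libraries labelled KO1, KO2 and KO3, against 60.0, 92.6 and 114 CPM in WT1, WT2 and WT3. Slfn8 lay at 34.5 to 78.3 CPM in KO and 44.6 to 59.7 CPM in WT, with 27.6% of its 31-base words shared with other genes. Slfn1 lay at 11.5 to 17.6 CPM in KO and 15.1 to 20.8 CPM in WT.

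Levels of different genes can be set side by side only per length, here as CPM per kilobase of the longest annotated coding transcript. On that scale Ly6e led at 424 ± 76.0 in KO and 434.5 ± 46.8 in WT (SD, n = 3 each). Ifi27l2a followed at 184 ± 5.66 in KO and 81.3 ± 29.6 in WT, and Igtp at 105 ± 31.1 in KO and 74.1 ± 9.08 in WT. Ly6e stood clear of Ifi27l2a in both groups, while in WT Ifi27l2a and Igtp did not differ beyond their spread. Gbp7 (31.1 in KO, 41.7 in WT), Gbp3 (31.05 in KO, 36.6 in WT), Isg20 (34.6 in KO, 33.9 in WT) and Zbp1 (31.03 in KO, 32.4 in WT) came next and lay within the spread of Isg20 in each group. At the other end, in falling order of WT levels, stood Ifit3 (2.06 in KO, 0.1998 in WT), Mx2 (0.792 in KO, 0.196 in WT) and Oas2 (1.12 in KO, 0.00865 in WT). In KO the lowest were Mx2, Cmpk2 (0.943), Ifi44 (0.974) and Usp18 (0.982). In all, 12 of the 37 genes averaged under 10 CPM in both groups and 4 averaged over 100 CPM in both.

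Upstream of these genes, 67 genes of interferon ligands, receptors, kinases, factors, sensors and inhibitors were listed, 64 were found, and 43 had enough counts to test. None of the 43 passed the test in either direction (adjusted p 0.460 to 0.999 by edgeR), 26 had a positive fold change, and the median was 0.16. In 2 of the 43 (4.65%, against 9.68% of all tested genes) every KO library lay above every WT library. In 1 (2.33%, against 8.01%) every KO library lay below. Of 21 interferon genes, 14 had no count in any library. Ifnb1, interferon beta, had 1 count, in the library labelled KO3, as did Ifnk. Ifnz had 43 counts in the library labelled KO1, 1 in the library labelled KO3 and 19 in WT3. Ifna13 had 16 counts and Ifne 7, all in WT3, and Ifnab had 3, all in WT2. Only Ifng, interferon gamma, could be tested, at 21.4, 27.2 and 20.1 CPM in the libraries labelled KO1, KO2 and KO3, against 32.9, 44.6 and 22.2 CPM in WT1, WT2 and WT3. Its log2 fold change was -0.54 (SE 0.35), with an adjusted p of 0.654. Tlr9, a DNA sensor of endosomes, was higher in every KO library, at 8.24, 15.3 and 9.72 CPM in the libraries labelled KO1, KO2 and KO3, against 1.13, 5.65 and 0.567 CPM in WT1, WT2 and WT3 (log2 fold change 2.19, SE 0.89, adjusted p 0.505 by edgeR).

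The receptor chains of type I interferons and interferon gamma were detected in every library. Ifnar1 was measured at 319, 327 and 301 CPM in the libraries labelled KO1, KO2 and KO3, against 350.4, 242 and 195 CPM in WT1, WT2 and WT3. Ifngr1 was measured at 1042, 1166 and 1079.6 CPM in the libraries labelled KO1, KO2 and KO3, against 1213, 1076 and 1046 CPM in WT1, WT2 and WT3. Both receptor chains overlapped between groups. Of the kinases, Jak1, shared by both pathways, was lower in every KO library, at 436, 400.0 and 408 CPM in the libraries labelled KO1, KO2 and KO3, against 604, 640.2 and 546 CPM in WT1, WT2 and WT3 (log2 fold change -0.52, SE 0.17, adjusted p 0.460 by edgeR). Tyk2, the type I kinase, was higher in every KO library, at 83.4, 87.9 and 93.5 CPM in the libraries labelled KO1, KO2 and KO3, against 71.8, 52.7 and 79.1 CPM in WT1, WT2 and WT3 (log2 fold change 0.38, adjusted p 0.630 by edgeR). Stat2 was measured at 81.6, 59.0 and 66.8 CPM in the libraries labelled KO1, KO2 and KO3, against 90.3, 78.7 and 87.4 CPM in WT1, WT2 and WT3. Stat2 overlapped between groups, unlike its partner Irf9.

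**Figure D5:**
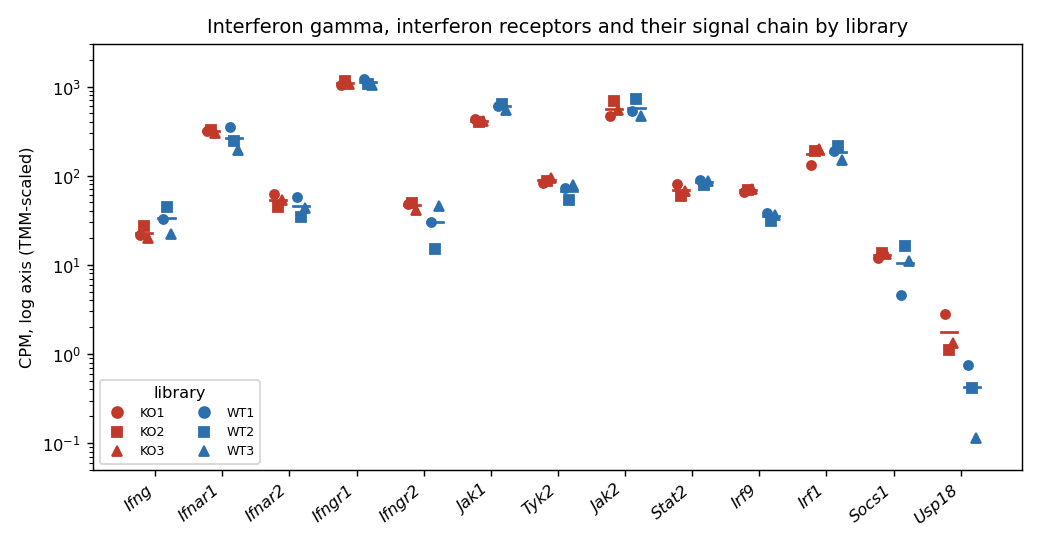
Level of interferon gamma, interferon receptor chains, kinases and factors, and of Irf9 and Usp18, in CPM on a log axis, with KO libraries in red and WT libraries in blue. Marker shape gives the library number and short bars the group means. Irf9 at 66.4 to 70.7 CPM in KO stands above 31.2 to 37.6 CPM in WT, while Jak1 stands below, at 400.0 to 436 CPM in KO and 546 to 640.2 CPM in WT.

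Over all 37 genes the summed level was 1966, 2470.1 and 2451 CPM in the libraries labelled KO1, KO2 and KO3, against 2077, 2183 and 2508 CPM in WT1, WT2 and WT3, with overlap. Both libraries of sort batch A were at the low end of each group. Together they held the lowest of the 6 values for 22 of the 37 genes (59.5%), where they held it for 32.7% of all tested genes. Within batch A, the library labelled KO1 was above WT1 in 22 of the 37 genes (59.5%, against 50.9% of all tested genes), with a median log2 difference of 0.10, against 0.01 over all tested genes. The other batches hold 1 genotype each.

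Several of these genes are also expressed by myeloid cells. Macrophage, monocyte and dendritic cell markers (16 of 16 found) summed to 737, 527 and 371 CPM in the libraries labelled KO1, KO2 and KO3, against 258, 239 and 380 CPM in WT1, WT2 and WT3. Of the 14 that could be tested, none passed the test, and 13 had a positive log2 fold change (median 0.99), where 47.4% of all tested genes did. An unadjusted p under 0.05 by edgeR with higher levels in KO was found for 8 of the 14, against 5.02% of all tested genes. Higher in every KO library were 6 of the 14 (42.9%, against 9.68% of all tested genes): Itgax, C1qb, Fcgr3, Fcgr1, Ms4a7 and Cst3. Clec9a was at 0 in all KO libraries. Plasmacytoid dendritic cell markers (6 of 6 found, Cox6a2 at 0 in every library) summed to 95.5 to 160 CPM in KO and 152 to 236 CPM in WT. Epithelial markers (8 of 9 found) summed to 54.3, 134 and 117 CPM in the libraries labelled KO1, KO2 and KO3, against 20.4, 38.5 and 12.7 CPM in WT1, WT2 and WT3. Of the 7 epithelial markers that could be tested, 1 passed the test with higher levels in KO (adjusted p 0.0169 by edgeR), where 0.0159% of all tested genes did. The log2 fold change was positive in 5 and negative in 2 (median 2.64). In 4 of the 7 (57.1%, against 9.68% of all tested genes) every KO library lay above every WT library. B and plasma cell markers (5 of 5 found) summed to 227 to 314 CPM in KO and 169 to 747 CPM in WT. The part of these cells in the levels of Irf9, Ifi27l2a, Oas2 and the other genes higher in KO was not tested. CD8 T and NK cell markers (4 of 4 found) summed to 1.89 to 3.07 CPM in KO and 4.06 to 6.81 CPM in WT. Of the neutrophil markers, S100a8, S100a9 and Retnlg were at 0 in every library. The fourth, Csf3r, was at 7.04, 9.25 and 6.52 CPM in the libraries labelled KO1, KO2 and KO3, against 1.70, 0.719 and 0.738 CPM in WT1, WT2 and WT3, without overlap (log2 fold change 2.85, SE 0.76, adjusted p 0.420 by edgeR).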

How the data were processed

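Bulk RNA was measured in 6 libraries of sorted Treg cells, 3 KO and 3 WT. Per the labels' protocols, RNA was amplified with the Ovation RNASeq System V2 before library preparation. Such amplification may drop a rare transcript from one library and not from another. The authors deposited estimated counts per gene as whole numbers, with their own comparison: a mean normalized signal, a log2 fold change with its error, a score for the test, and p-values before and after adjustment, per the file headers. The submitters' processing notes name DESeq2 1.34.0, R 4.1.2, Salmon 1.4.0 and fastp 0.20.0 without roles. Genome build and annotation: the sources used here give neither. The 6 columns of a second deposited, normalized table could not be matched to samples by name and were left out.

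Rows with the same Entrez identifier were summed (71 rows removed, 32090 genes left). Genes passing edgeR's filterByExpr (minimum count 10, minimum total 15; 12557 genes) were scaled by TMM. Genotype was the single term of edgeR's quasi-likelihood fit (version 4.0.16, R 4.3.3). CPM values are relative to TMM-scaled library sizes, and log2 differences between single libraries a prior count of 2. DESeq2 1.42.0 and limma 3.58.1 gave alternatives, with other scalings, filters, design terms and each library left out in turn. DESeq2 left 5325 of 18841 adjusted p-values empty. Transcript lengths and shared 31-base words came from GENCODE M21 transcripts and promoters from RefSeq GRCm38.p6. The fits were tested on simulated data.

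The 37 genes and the other lists were chosen with earlier results of these data known. Among the 37, values in every library are given for genes whose groups do not overlap, with an unadjusted p under 0.05, with 0 to 3 counts over a group, or among the 8 of highest mean CPM, and for others chosen after their values were seen. Genes of the other lists are named where they meet the same rule or stand for a step of the pathway. Other genes are given by range. The values of 1 gene of the pathway list are not reported here.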

Additional observations from a re-analysis of the deposited data

How the results depend on the processing

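The count of interferon-stimulated genes called stayed at 0 in 15 of 16 alternatives. DESeq2's Wald test called 3 (Oas2 with a log2 fold change of 7.23, Irf9 0.97, Ifi27l2a 1.17) and 255 genes in all, against 3 genes in all by edgeR. The count in all was 9 without a filter, 1 with RNA integrity as a covariate, 1 with the libraries labelled KO2 and KO3 summed, and 1 to 4 with a library left out (1 without WT1, WT2, WT3 or the library labelled KO3). The median log2 fold change of the 37 genes (0.16) was 0.34 by limma-voom, and 0.066 to 0.44 with a library left out (0.44 without WT3). Over the 30 genes left by a filter of 50 counts in 3 libraries it was -0.049, against -0.046 over all genes left by that filter. The 7 genes higher in KO without overlap remained in every setting that allows the count except the stricter filter, which left 5 (Oas2 and Usp18 were not tested). Apart from rescaling, leaving out or summing libraries cannot make separate groups overlap, and limma-voom used the main CPM values. Those settings therefore could not test whether the 7 genes stay apart. With a library left out the count was 7 to 12, with 12 (32.4%, against 19.0% of all tested genes) without the library labelled KO1. The cause of these shifts was not tested.

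Of 585 alternative fold changes of single genes, 37 changed sign. These were Ly6e (0.0060 with upper-quartile factors, 0.0064 without a filter, 0.12 by limma-voom), Ifit1 0.63, Oas3 0.32 and Zbp1 0.21 by limma-voom, Oas3 0.14 with sort batch A as a term, and Isg20 -0.083 with the libraries labelled KO2 and KO3 summed. With the RNA integrity number they were Isg20 -0.11, Oas3 0.25, Ifi44 0.20, Zbp1 0.27, Gbp2 -0.063 and Parp14 0.023. With a library left out, the ranges that crossed 0 were Isg20 -0.25 to 0.48, Gbp2 -0.10 to 0.82, Oas3 -0.46 to 0.25, Ifi44 -1.03 to 0.19, Zbp1 -0.23 to 0.27, Parp14 -0.16 to 0.013, Ifit1 -1.25 to 1.401, Ly6e -0.14 to 0.094, Xaf1 -1.20 to 0.073, Dhx58 -0.75 to 0.44, Slfn5 -0.43 to 0.014, Slfn8 -0.083 to 0.43. In all, 18 genes were positive and 7 negative in every setting that tested them. Of the positive genes, Ifit3, Mx1, Mx2, Oas2, Oasl1, Usp18 and Rtp4 were not tested under the stricter filter. The settings refit the same libraries or most of them, and the share of all tested genes with a constant sign was not computed.

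Apart from sort batch A, which holds WT1 and the library labelled KO1, no pairing by replicate number is given. Deviations of same-numbered libraries from their group means correlated at 0.0093 to 0.049. Those of other pairs correlated at -0.070 to 0.051, so these correlations cannot settle whether the samples were paired. With the replicate block, edgeR called 3 genes and none of the 37, their median was 0.25, and Oas3 had 0.14. Low counts limit the 12 genes under 10 CPM in both groups, and sex and the sort batches other than A cannot be told apart from genotype.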

Other observations

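A further 86 interferon-stimulated genes were listed, 84 were found and 79 had enough counts to test. None passed the test in either direction (adjusted p 0.433 to 0.995 by edgeR), 45 had a positive and 34 a negative fold change, and the median was 0.11. In 11 of the 79 (13.9%, against 9.68% of all tested genes) every KO library lay above every WT library: Ifitm1, Cxcl9, F830016B08Rik, Parp12, Ifit1bl1, Daxx, Plac8, Gbp10, Uba7, Ddx60 and Shisa5. In 7 (8.86%, against 8.01%) every KO library lay below: Ifi211, Eif2ak2, Trim21, Slfn9, Parp9, Usp25 and Sp100.

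Among those with higher levels in KO, Daxx, a histone chaperone, was measured at 48.2, 50.3 and 52.3 CPM in the libraries labelled KO1, KO2 and KO3, against 19.8, 23.8 and 34.5 CPM in WT1, WT2 and WT3 (log2 fold change 0.95, SE 0.30). Uba7, the enzyme that activates Isg15 for attachment, was measured at 78.2, 52.4 and 62.4 CPM in the libraries labelled KO1, KO2 and KO3, against 45.2, 41.9 and 26.8 CPM in WT1, WT2 and WT3 (log2 fold change 0.76, SE 0.29). Isg15 itself overlapped and Usp18, which removes it, did not. Cxcl9, a chemokine that draws T cells, stood at 8.73, 19.7 and 11.8 CPM in the libraries labelled KO1, KO2 and KO3, against 3.30, 0.822 and 5.56 CPM in WT1, WT2 and WT3, while its relative Cxcl10 overlapped, at 102 to 298 CPM in KO and 188 to 238 CPM in WT.

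Among those with lower levels in KO, Ifi211, of the DNA-sensing PYHIN family, was measured at 0.935, 0.669 and 0.564 CPM in the libraries labelled KO1, KO2 and KO3, against 2.17, 6.27 and 11.6 CPM in WT1, WT2 and WT3 (log2 fold change -3.19, SE 0.90). Eif2ak2 (PKR), the kinase that stops translation on sensing double-stranded RNA, was measured at 10.1, 13.0 and 12.4 CPM in the libraries labelled KO1, KO2 and KO3, against 16.2, 30.2 and 51.3 CPM in WT1, WT2 and WT3 (log2 fold change -1.46, SE 0.46). None of these genes passed the test, and the share of the further list on the lower side (8.86%) was near that of all tested genes (8.01%).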
